A study of Mus musculus with 6 samples.

Results

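The transcription factors that mark and commit the satellite cell lineage were followed in cultured SCs of WT and *Ltf*-KO mice. The 6 genes are the paired box factors *Pax7* and *Pax3* and the 4 myogenic regulatory factors (MRFs) *Myf5*, *Myod1*, *Myog* and *Myf6*. They were chosen by name, and each was found as 1 row among the 55416 genes of the deposited table. SCs are the muscle stem cells that lie beside the myofiber. In this study they were sorted from digested hind leg muscle of adult mice as Sca1-/CD11b-/CD34+/α7-integrin+ cells. Sorted cells were collected into medium with fetal bovine serum, chick embryo extract and basic fibroblast growth factor. The cells were then grown for 4 days on Matrigel with no further treatment, in a medium that is not stated separately. RNA sequencing gave 6 libraries, 3 from WT SCs and 3 from *Ltf*-KO SCs, harvested on the same day of culture. The *Ltf*-KO mice carry a systemic deletion of exons of *Ltf*, which encodes the iron-binding glycoprotein lactoferrin, made with CRISPR-Cas9 in C57/BL6N zygotes. The allele is therefore missing from every cell type and not from SCs alone. The labels do not say whether the 3 libraries of a genotype came from separate mice, so the p-values below measure the spread between libraries, which may be technical.

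As background, *Pax7* marks SCs in adult muscle and is needed to maintain them, and its close relative *Pax3* acts mainly in muscle progenitors of the embryo and in some adult muscles. *Myf5* and *Myod1* commit cells to the muscle lineage and are carried by proliferating myoblasts. *Myog* encodes myogenin, which is switched on when myoblasts leave the cell cycle and differentiate, and *Myf6* (also called MRF4) is known best from mature myofibers. The MRFs are basic helix-loop-helix proteins that pair with E-proteins and bind the E-box, a short DNA motif, in the promoters of muscle genes.

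The genes lie on 4 chromosomes, with positions here from GENCODE M21 on GRCm38. *Pax7* is on chromosome 4 from 139737062 to 139833528, and *Pax3* is on chromosome 1 from 78101267 to 78197134. Each has 9 exons in its main transcript. The MRF genes are short, with 3 exons each. *Myog* is on chromosome 1 from 134289989 to 134292548 and *Myod1* on chromosome 7 from 46376474 to 46379099. *Myf5* (107482908 to 107486134) and *Myf6* (107492853 to 107494737) are neighbours on the minus strand of chromosome 10, with 6718 bp between them. In the annotation deposited with the values, the 4 MRFs share 10 gene ontology terms, among them positive regulation of myoblast fusion, while all 6 genes share 3 general terms of nuclear transcription factors.

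The sequence just upstream is shown for *Myog*, the MRF whose level varied most, and for *Myf5*, an MRF with a smaller coefficient of variation. Both are RefSeq windows on GRCm38.p6, chr1:134289754-134289988 on the plus strand and chr10:107486135-107486384 on the minus strand. Capitals mark E-boxes (letters CANNTG, the same on both strands) and the core of the motif of MEF2, a partner of the MRFs (TA, then 4 bases that are A or T, then TA).
Myog: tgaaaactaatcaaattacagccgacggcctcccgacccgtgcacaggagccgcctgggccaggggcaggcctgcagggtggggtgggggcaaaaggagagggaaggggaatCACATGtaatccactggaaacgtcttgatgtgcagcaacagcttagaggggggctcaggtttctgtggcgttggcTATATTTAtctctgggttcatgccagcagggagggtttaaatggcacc
Myf5: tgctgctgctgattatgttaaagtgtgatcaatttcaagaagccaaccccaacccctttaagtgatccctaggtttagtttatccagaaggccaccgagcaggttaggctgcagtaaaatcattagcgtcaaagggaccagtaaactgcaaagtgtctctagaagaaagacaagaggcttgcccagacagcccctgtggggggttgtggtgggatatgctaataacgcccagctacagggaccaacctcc

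The *Myog* stretch held 1 E-box, 138 bases before the RefSeq start, and 1 MEF2 core, 63 bases before it. A further E-box began 12 bases before the RefSeq start, inside the transcript as GENCODE draws it, and is not printed. Among 32817 windows of 250 bases upstream of mouse genes, 66.2% held at least 1 E-box, 31.8% held as many as the 2 of *Myog*, and 8.56% held a MEF2 core. Neither motif was in the windows of *Myf5* and *Pax7*. These matches describe the letters of the windows, and no binding was measured here.

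Values are TPM, a unit that corrects read numbers for transcript length and brings every library to the same total. Levels of different genes may thus be set against each other, but the sequencing depth is unknown. Between 12828 and 12951 genes reached 1 TPM in each library, and libraries of the same genotype correlated no better (r = 0.973 to 0.978 across genes) than libraries of different genotypes (0.972 to 0.977). *Ltf* was at 0 to 0.12 TPM in every library, so its transcript does not tell the genotypes apart. The cells carried the markers of their label, with 10 of 12 SC and myoblast markers at a mean of 1 TPM or more. *Itga7*, the integrin used in the sort, was at 371 to 416 TPM. *Chodl* and *Calcr*, known from quiescent SCs, were at 0.37 TPM or less. Defining markers of other cell types were low, with *Ptprc* of blood cells at 0.16 TPM or less, *Myh11* and *Rgs5* of smooth muscle and pericytes at 0.62 TPM or less, *Pdgfra* of fibroblasts at 1.00 to 1.90 TPM and *Pecam1* of endothelial cells at 1.02 to 2.71 TPM. None of the 33 markers of other cell types was at 0 in all 6 libraries.

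The 6 factors spanned nearly the whole range of expression. *Myod1* was the highest, at a mean of 779 TPM over the 6 libraries, above 98.6% of the 12956 tested genes, those that averaged 1 TPM or more. *Myog* followed at a mean of 359.6 TPM, *Myf5* at 122.6 TPM and *Pax7* at 40.3 TPM. *Myf6* and *Pax3* were close to the filter, at 2.01 and 1.46 TPM. Each of the upper 4 stood apart from its neighbours in every library. The *Myf6* and *Pax3* ranges overlapped, and *Myf6* was the higher in 5 of 6 libraries, so their order does not exceed their spread. The neighbours *Myf5* and *Myf6* differed 61.6-fold in TPM on average, and 43.4- to 74.6-fold in single libraries. The other 7 Pax genes did not exceed 0.43 TPM in any library, and 2 of them were listed at 0 throughout.

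**Figure D1:**
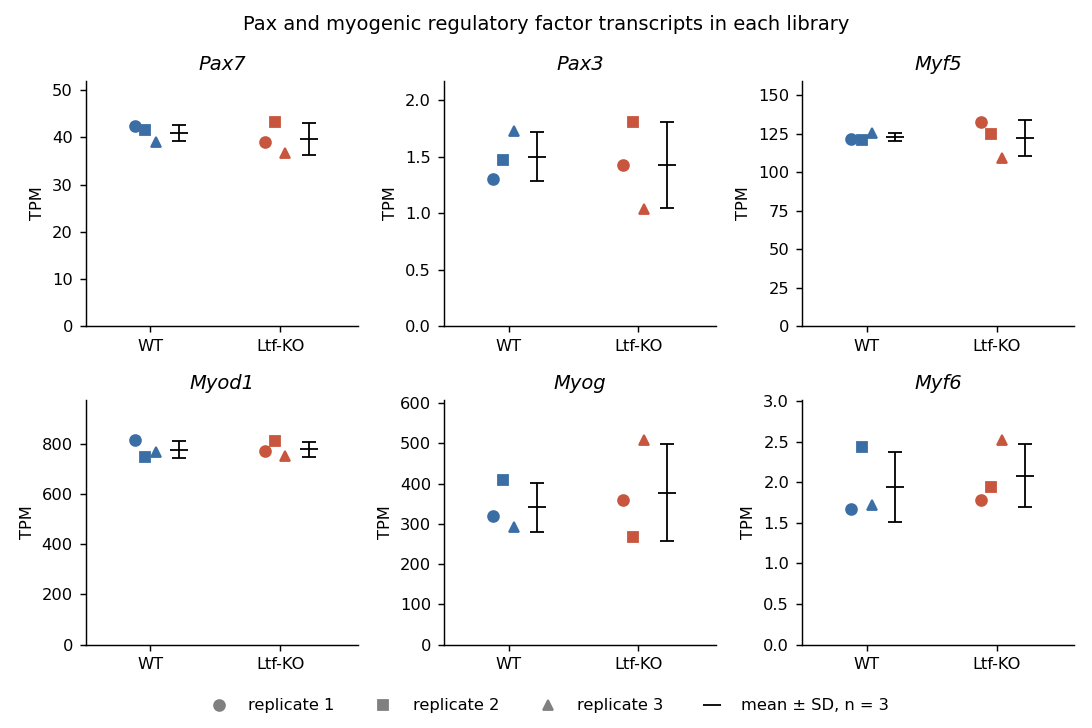
TPM of the 6 factors in each WT (blue) and *Ltf*-KO (red) library, with symbols for replicates 1 to 3 and the mean ± SD (n = 3) beside them, each axis starting at 0. The genotypes overlap for all 6 factors, and *Myog* spreads most among the factors above 10 TPM, from 266 to 508 TPM.

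To ask whether loss of *Ltf* changed the identity or commitment of cultured SCs, each factor was compared between genotypes. None of the 6 differed beyond the spread between libraries. *Pax7*, the stem cell marker, was at 42.4, 41.5 and 39.1 TPM in WT replicates 1 to 3 and at 39.0, 43.3 and 36.6 TPM in *Ltf*-KO replicates 1 to 3. The *Ltf*-KO libraries held both the highest and the lowest value. The means were 41.0 ± 1.72 TPM in WT SCs (SD, n = 3), against 39.6 ± 3.39 TPM in *Ltf*-KO SCs (SD, n = 3), and the log2 fold change on the log2(TPM + 1) scale was -0.05 (standard error 0.071, limma adjusted p = 0.999). Its 95% confidence interval ran from a 0.859-fold to a 1.09-fold level.

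*Pax3*, the embryonic relative, was at 1.30, 1.47 and 1.73 TPM in WT and at 1.43, 1.81 and 1.04 TPM in *Ltf*-KO SCs. It was highest in *Ltf*-KO replicate 2 and lowest in *Ltf*-KO replicate 3, with the WT libraries between them. The log2 fold change was -0.05 (standard error 0.173, limma adjusted p = 0.999). At this level the interval was wide, from 0.723- to 1.29-fold.

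*Myf5*, the early commitment factor, was at 122, 121 and 126 TPM in WT and at 133, 125 and 109 TPM in *Ltf*-KO SCs. The WT libraries lay within the *Ltf*-KO range. The means were 122.8 ± 2.70 TPM (SD, n = 3) and 122.4 ± 11.9 TPM (SD, n = 3), a log2 fold change of -0.01 with a standard error of 0.072 (limma adjusted p = 0.999), with an interval from 0.882- to 1.12-fold.

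*Myod1*, the commitment factor of activated SCs, was at 816, 748 and 771 TPM in WT and at 775, 812 and 753 TPM in *Ltf*-KO SCs. Here the WT libraries held both extremes. The means were 778 ± 34.6 TPM (SD, n = 3) and 779.9 ± 30.1 TPM (SD, n = 3), a log2 fold change of 0.004 with a standard error of 0.045 (limma adjusted p = 0.999). The interval was the narrowest of the 6, from 0.931- to 1.08-fold.

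*Myog*, the differentiation factor, was at 319, 410.3 and 293 TPM in WT and at 360.4, 266 and 508 TPM in *Ltf*-KO SCs. The highest library was *Ltf*-KO replicate 3, followed by WT replicate 2, and the lowest was *Ltf*-KO replicate 2. The means were 341 ± 61.4 TPM (SD, n = 3) and 378 ± 122 TPM (SD, n = 3), a log2 fold change of 0.11 with a standard error of 0.24 (limma adjusted p = 0.999). On the log2(TPM + 1) scale the interval was the widest of the 6, from 0.726- to 1.61-fold. With 0.1 added to TPM in place of 1, that of *Pax3* was wider. It then ran from -0.752 to 0.571 in log2, against -0.451 to 0.679 for *Myog*.

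*Myf6*, the factor of mature fibers, was at 1.67, 2.44 and 1.72 TPM in WT and at 1.78, 1.95 and 2.52 TPM in *Ltf*-KO SCs. Its highest libraries were *Ltf*-KO replicate 3 and WT replicate 2, as for *Myog*. The log2 fold change was 0.07 (standard error 0.164, limma adjusted p = 0.999), with an interval from 0.798- to 1.38-fold.

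Across the whole table, 0 of 12956 genes had a limma adjusted p under 0.05, a share of 0.0%, while 490 genes (3.78%) had an unadjusted p under 0.05. Genotypes were fully separate for 8.46% of tested genes. Of the 6 factors, 0 had an unadjusted p under 0.05 and 0 had genotypes that did not overlap. The sign of these small differences rested on single libraries. *Ltf*-KO replicate 3 was the lowest library for *Pax7*, *Pax3* and *Myf5* and the highest for *Myog* and *Myf6*. Without it the log2 fold changes were 0.0038 for *Pax7*, 0.067 for *Pax3*, 0.069 for *Myf5*, -0.12 for *Myog* and -0.03 for *Myf6*, each with the opposite sign. Without WT replicate 3, *Pax3* was at 0.014 and *Myf5* at 0.0089. That of *Myod1* was negative when WT replicate 2 (-0.02), WT replicate 3 (-0.0026) or *Ltf*-KO replicate 2 (-0.03) was left out, and also with quantile normalization (-0.0029) and median-of-ratios scaling (-0.0085).

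**Figure D2:**
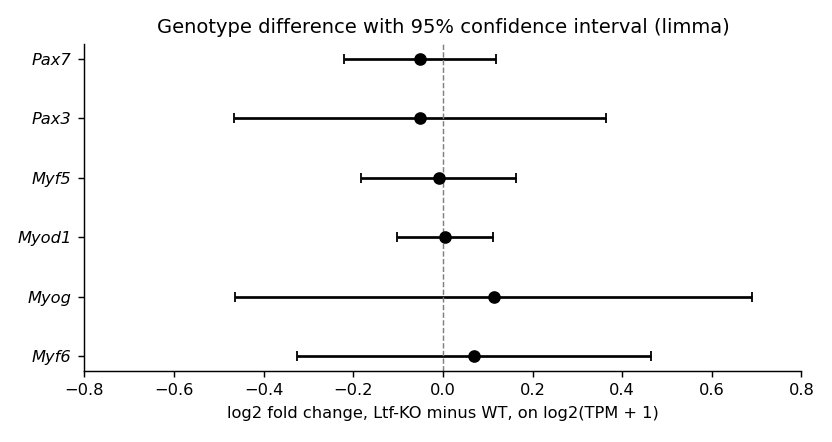
Log2 fold change of each factor, *Ltf*-KO minus WT, on the log2(TPM + 1) scale (points), with the 95% confidence interval from limma (bars, 3 libraries against 3). All 6 intervals include 0, the narrowest on this scale being that of *Myod1* and the widest that of *Myog*.

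The balance between the factors within a library, which does not depend on how the library was scaled, was compared next. The *Myog* to *Myod1* ratio, a measure of differentiation against commitment, was 0.391, 0.549 and 0.381 in WT and 0.465, 0.328 and 0.675 in *Ltf*-KO SCs. The *Ltf*-KO libraries again held both extremes, and the log2 ratio differed by 0.11 (two-sided exact permutation p = 0.7). The *Pax7* to *Myod1* ratio was 0.052, 0.0556 and 0.0507 in WT and 0.0503, 0.0533 and 0.0487 in *Ltf*-KO SCs, a log2 difference of -0.06 (exact permutation p = 0.4). *Myf5* was 2.87 to 3.22 times *Pax7* in WT and 2.89 to 3.4 times in *Ltf*-KO SCs (exact permutation p = 0.6). The *Pax3* to *Pax7* and *Myf6* to *Myog* ratios gave exact permutation p-values of 0.8 and 1. For all 5 ratios the Benjamini-Hochberg adjusted p was 1, and 3 libraries against 3 cannot give a p below 0.1.

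As shares of the summed TPM of the 4 MRFs, *Myod1* made up 58.4% to 64.8% in the WT libraries and 54.8% to 67.4% in the *Ltf*-KO libraries. *Myog* made up 24.6% to 32.0% in WT and 22.1% to 37.0% in *Ltf*-KO libraries. *Myf5* took 7.97% to 10.6% and *Myf6* at most 0.19% in any library. The sum of the 4 was 1244 ± 46.5 TPM in WT SCs (SD, n = 3), against 1283 ± 84.2 TPM in *Ltf*-KO SCs (SD, n = 3), a difference smaller than the spread between libraries.

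**Figure D3:**
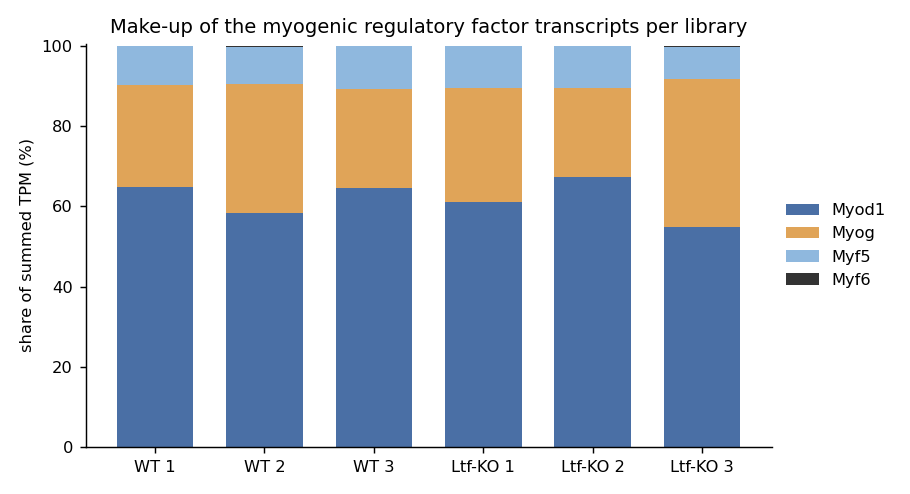
Share of each MRF (coloured segments, percent) in the summed TPM of *Myf5*, *Myod1*, *Myog* and *Myf6*, per library. *Myog* takes 37.0% in *Ltf*-KO replicate 3 and 22.1% in *Ltf*-KO replicate 2, and *Myod1* is the largest share in every library.

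The spread among libraries differed between the factors. Over the 6 libraries the coefficient of variation was 3.73% for *Myod1*, 6.31% for *Myf5*, 6.24% for *Pax7*, 18.6% for *Myf6* and 19.3% for *Pax3*. That of *Myog* was 24.6%. The median was 3.74% for tested genes at 100 TPM or more, 6.29% from 10 to 100 TPM and 16.1% from 1 to 10 TPM. *Myog* thus varied more than 98.3% of the genes at 100 TPM or more, *Myf5* more than 80.8% and *Myod1* more than 49.7% of them. *Pax7* varied more than 49.4% of the genes from 10 to 100 TPM.

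Of the relations examined among the libraries, that of *Myog* with the listed myogenic target genes was the closest. Whether *Myog* regulates these genes was not tested. The list of myogenic target genes held 24 genes, all of which passed the filter, such as acetylcholine receptor subunits, sarcomere proteins and the fusion proteins *Mymk* (myomaker) and *Mymx* (myomixer). Their geometric mean was 110 TPM, 130 TPM and 104 TPM in WT replicates 1 to 3 and 120 TPM, 106 TPM and 145 TPM in *Ltf*-KO replicates 1 to 3. The libraries high in *Myog*, *Ltf*-KO replicate 3 and WT replicate 2, were also the highest in the targets. Mean log2(TPM + 1) of the targets correlated with that of *Myog* over the 6 libraries (Pearson r = 0.98, exact permutation p = 0.00278, adjusted p = 0.0111 over 4 relations). Spearman's rho was 0.943 (exact permutation p = 0.0167), and its adjusted p of 0.0668 did not pass 0.05. The target list was chosen with earlier results of these data known, so these p-values are not those of an independent test. Without the 2 libraries farthest from the *Myog* median, *Ltf*-KO replicates 2 and 3, r was 0.999 over the other 4. In bulk RNA, more cells that express *Myog* and more *Myog* RNA per cell cannot be told apart.

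Among single targets, 16 of 24 (66.7%) had an r of at least 0.8 with *Myog*, against 5.33% of all tested genes. This was not particular to *Myog*, since 12 of the 24 had such an r with *Myf6*, against 3.85% of all tested genes. With *Myf5* it was 1, against 3.72% of all tested genes. With *Pax7*, *Pax3* and *Myod1* it was 0, against 2.59%, 6.03% and 3.37%. A negative r of at least 0.8 in size was found for 3 of the 24 with *Pax7*, 4 with *Pax3* and 5 with *Myod1*. The shares of all tested genes were 2.62%, 3.75% and 4.04%. For *Myf5*, *Myog* and *Myf6* that count was 0. Only *Myog* was tested against the mean of the targets. These coefficients each rest on 6 libraries and are given as a description. *Ltf*-KO replicate 3 was the highest library for 20 of the 24, against 17.0% of all tested genes. *Mylpf*, a fast myosin light chain, was at 921, 1222 and 875 TPM in WT and at 1011, 822 and 1396 TPM in *Ltf*-KO SCs, with the same order of libraries as *Myog* (r = 0.99). *Acta1*, skeletal muscle actin, was at 844, 1065 and 868 TPM in WT and at 933, 909 and 1243 TPM in *Ltf*-KO SCs (r = 0.901). *Mymk*, named after its values were seen, was at 107, 133 and 102 TPM in WT and at 122.7, 102 and 160.2 TPM in *Ltf*-KO SCs (r = 0.986). *Chrna1*, the muscle acetylcholine receptor alpha subunit, did not vary in this way. It was at 508 to 526 TPM in all 6 libraries (r = -0.59 with *Myog*).

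Between genotypes, 0 of the 24 targets had an unadjusted p under 0.05. Their median log2 fold change was 0.106, against 0.011 for all tested genes. Of the 24, 22 were higher in *Ltf*-KO SCs, against 55.7% of all tested genes. This also rested on *Ltf*-KO replicate 3, since without it the median was -0.008 with 10 of 24 higher. Leaving out WT replicate 2 gave 0.239, leaving out *Ltf*-KO replicate 2 gave 0.224 and leaving out WT replicate 3 gave 0.049. The targets with the lowest p were *Rb1*, the retinoblastoma protein (15.3 ± 1.16 TPM in WT and 18.8 ± 4.30 TPM in *Ltf*-KO SCs, SD, n = 3), *Ttn*, titin (35.5 ± 5.4 TPM and 40.4 ± 4.66 TPM), and *Myl1*, a myosin light chain (215.8 ± 41.7 TPM and 266.1 ± 66.7 TPM), and all 3 had overlapping genotypes and a limma adjusted p of 0.999.

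**Figure D4:**
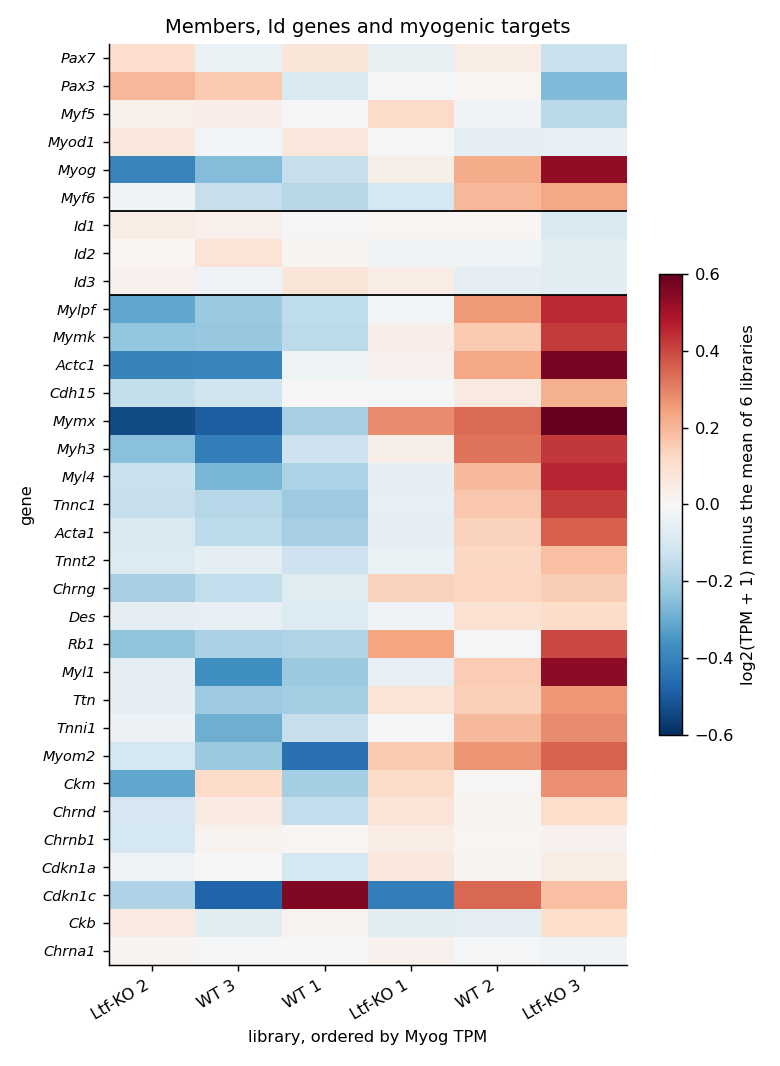
Log2(TPM + 1) of each gene minus its mean over the 6 libraries (colour, with the scale ending at 0.6 in either direction), with libraries ordered from low to high *Myog* TPM. Rows are the 6 factors, 3 Id genes and the 24 targets, sorted by their r with *Myog*, and the columns WT replicate 2 and *Ltf*-KO replicate 3 are red for most targets.

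The other relations did not pass the test. *Pax7* and *Myog* had r = -0.68 (exact permutation p = 0.136, adjusted p = 0.181) and Spearman's rho = -0.71 (exact permutation p = 0.136), and r was 0.26 without *Ltf*-KO replicates 2 and 3, so the negative sign rested on those 2 libraries. *Myod1* and *Myog* had r = -0.76 (exact permutation p = 0.0931, adjusted p = 0.181) and rho = -0.66 (exact permutation p = 0.175), and r was -0.73 without WT replicate 1 and *Ltf*-KO replicate 2. *Pax7* and *Myf5* had r = 0.40 (exact permutation p = 0.44, adjusted p = 0.44) and rho = 0.09 (exact permutation p = 0.919), and r was -0.83 without *Ltf*-KO replicates 2 and 3. None of these 3 relations could be told from the spread among the 6 libraries.

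The summed Schwann cell and endothelial markers were highest in the libraries where *Pax3* was highest. The sum of the 5 Schwann cell markers was 21.1, 28.3 and 37.4 TPM in WT and 28.9, 37.1 and 25.2 TPM in *Ltf*-KO replicates 1 to 3. That of the 7 endothelial markers was 10.1, 7.86 and 19.1 TPM in WT and 18.0, 19.2 and 9.39 TPM in *Ltf*-KO SCs. WT replicate 3 and *Ltf*-KO replicate 2 were the highest libraries for *Pax3* and for both sums, and the lowest for *Myog*. Of single markers, 2 of 5 tested Schwann, 2 of 5 endothelial, 1 of 3 smooth muscle and pericyte, 0 of 6 fibroblast and 0 of 2 blood cell genes had an r of at least 0.8 with *Pax3*, against 6.03% of all tested genes. The fibroblast sum was 8.08 to 14.1 TPM in WT and 12.6 to 17.5 TPM in *Ltf*-KO SCs, the blood cell sum 4.63 to 12.5 TPM and 3.59 to 5.05 TPM, and the smooth muscle and pericyte sum 42.6 to 45.0 TPM and 42.6 to 51 TPM, most of it from *Cspg4*. The blood cell sum did not follow *Pax3*. All 6 tested fibroblast markers were higher in *Ltf*-KO SCs, against 55.7% of all tested genes, with a median log2 fold change of 0.162. Without WT replicate 1, 4 of the 6 were higher, with a median of 0.101. *Mfap5*, a microfibril protein, was at 1.24, 1.53 and 2.24 TPM in WT and at 3.78, 3.24 and 2.66 TPM in *Ltf*-KO SCs. Its genotypes did not overlap, and its unadjusted p was under 0.05, as was that of the endothelial gene *Egfl7* (2.51 ± 0.714 TPM and 4.55 ± 1.23 TPM), but the limma adjusted p was 0.999 for both. The SC and myoblast markers summed to 1370 to 1480 TPM and 1390 to 1520 TPM, and include 2 of the myogenic targets. The study stained for CD31 of endothelial cells and CD45 of blood cells and sorted Sca1- cells. How far this removed cells of other types was not tested, nor was their part in the values of *Pax3* and *Myog*.

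**Figure D5:**
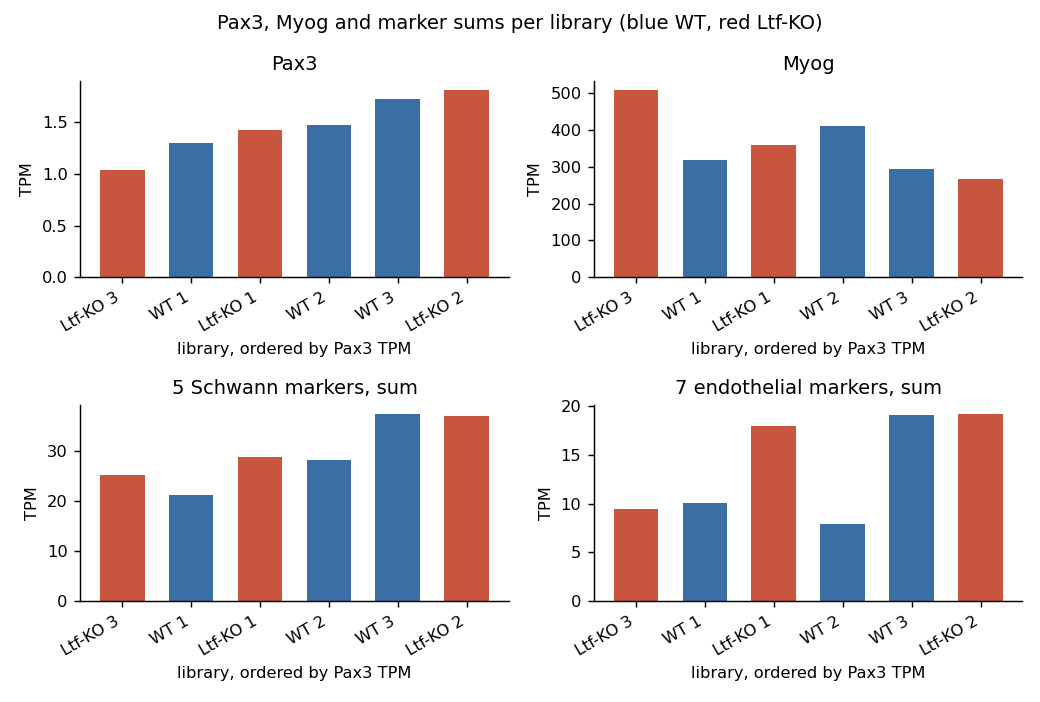
TPM of *Pax3* and *Myog* and the summed TPM of 5 Schwann and 7 endothelial markers in each WT (blue) and *Ltf*-KO (red) library, ordered by *Pax3*, with axes starting at 0. WT replicate 3 and *Ltf*-KO replicate 2 stand at the right with the highest *Pax3* and marker sums and the lowest *Myog*.

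The partners and regulators of the factors were read from the lists of their pathway. Together these lists held 89 genes besides the 6 factors, of which 78 passed the filter, 0 had a limma adjusted p under 0.05 and 1 (1.28%) had an unadjusted p under 0.05, against 3.78% of all tested genes. The genotypes did not overlap for 5 of them (6.41%, against 8.46%). These were *Zeb1*, *Msc*, *Snai1*, *Paxip1* and *Setdb1*.

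The 3 E-proteins, which pair with MRFs to bind DNA, were higher in *Ltf*-KO SCs by small amounts that did not pass the test. Of all tested genes 55.7% were higher, and without WT replicate 3 only 2 of the 3 E-proteins were. *Tcf12* was at 104.6 ± 3.17 TPM in WT SCs (SD, n = 3), against 108.7 ± 1.5 TPM in *Ltf*-KO SCs (SD, n = 3). *Tcf3* was at 58.4 ± 3.20 TPM and 61.7 ± 1.52 TPM, and *Tcf4* at 42.03 ± 4.01 TPM and 43.7 ± 0.459 TPM (limma adjusted p = 0.999 each).

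Of the 16 inhibitors and repressors, 15 passed the filter, with 7 higher and 8 lower in *Ltf*-KO SCs. The Id proteins, which trap E-proteins away from MRFs, were abundant. *Id3* was at 495.8 ± 23.3 TPM in WT SCs (SD, n = 3), against 496.7 ± 21.1 TPM in *Ltf*-KO SCs (SD, n = 3), *Id1* at 399 ± 5.06 TPM and 393 ± 19.3 TPM, and *Id2* at 284.7 ± 10.9 TPM and 275 ± 7.25 TPM. All 3 were lowest in *Ltf*-KO replicate 3, the library with the most *Myog*. For *Id3* the margin was small, at 472.67 TPM there and 477.22 TPM in WT replicate 2. *Id4* was not lowest there, at 1.96 TPM against 1.74 TPM in WT replicate 3. The share of all tested genes that were lowest in that library was not determined. *Zeb1*, a repressor that also binds E-box sequences, was at 11.9, 12.4 and 12.1 TPM in WT and at 17.9, 14.5 and 16.5 TPM in *Ltf*-KO SCs. Every *Ltf*-KO library lay above every WT library, with a log2 fold change of 0.39 (standard error 0.083), and it was the gene with an unadjusted p under 0.05, but its limma adjusted p was 0.999. *Msc*, a bHLH repressor also called MyoR, was at 1.34 ± 0.308 TPM in WT SCs (SD, n = 3), against 0.937 ± 0.103 TPM in *Ltf*-KO SCs (SD, n = 3), and *Snai1* at 14.8 ± 0.805 TPM and 15.6 ± 0.227 TPM (limma adjusted p = 0.999 each).

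Of the 15 genes listed as upstream homeodomain factors and cofactors, with the T-box factor *Tbx1* among them, 12 passed the filter. Of these, 8 were higher in *Ltf*-KO SCs, against 55.7% of all tested genes, with a median log2 fold change of 0.046. *Pitx3* was at 45.3 ± 8.16 TPM in WT SCs (SD, n = 3), against 46.8 ± 3.70 TPM in *Ltf*-KO SCs (SD, n = 3), and *Six4* was at 10.3 ± 0.558 TPM and 10.99 ± 0.955 TPM. None of the 12 had an unadjusted p under 0.05 in limma.

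The 4 Mef2 genes, whose products act with MRFs, passed the filter and had overlapping genotypes. *Mef2a* was at 97.8 ± 6.88 TPM in WT SCs (SD, n = 3), against 101.1 ± 6.24 TPM in *Ltf*-KO SCs (SD, n = 3) and *Mef2d* at 65.5 ± 2.50 TPM and 67.4 ± 2.30 TPM. *Mef2c*, a differentiation partner, was at 10.5, 14.9 and 12.1 TPM in WT and at 14.8, 9.95 and 16.6 TPM in *Ltf*-KO SCs. Like *Myog*, it was highest in *Ltf*-KO replicate 3 and WT replicate 2 and lowest in *Ltf*-KO replicate 2 (r = 0.901 with *Myog* over the 6 libraries). *Mef2b* was at 5.73 ± 0.267 TPM and 5.30 ± 1.03 TPM.

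All 20 chromatin cofactors passed the filter, with 11 higher and 9 lower in *Ltf*-KO SCs and a median log2 fold change of 0.01. The most abundant were the deacetylase *Hdac1* (103.4 ± 2.55 TPM in WT and 100.3 ± 2.68 TPM in *Ltf*-KO SCs, SD, n = 3), the arginine methyltransferase *Prmt5* (95.5 ± 0.849 TPM and 96.5 ± 7.77 TPM) and *Smarca4*, the ATPase of the BAF remodelling complex (77.2 ± 2.83 TPM and 78.9 ± 0.615 TPM). *Paxip1*, which links Pax factors to histone methyltransferases, had the lowest p of the list, at 26.4, 27.8 and 27.7 TPM in WT and 24.9, 23.8 and 26.1 TPM in *Ltf*-KO SCs (log2 fold change -0.13, standard error 0.053, limma adjusted p = 0.999). *Setdb1* was at 24.1 ± 0.627 TPM and 25.8 ± 0.513 TPM and *Hdac5* at 63.7 ± 3.27 TPM and 68.3 ± 3.28 TPM (limma adjusted p = 0.999 each).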

How the data were processed

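RNA of cultured WT and *Ltf*-KO SCs was sequenced by the study, in 3 libraries of each genotype. The labels do not say whether these came from separate cultures. The authors deposited 1 table of TPM values per gene and library, with 2 decimals, and replicates were not pooled. The labels name the build GRCm39, and the aligner, counting tool and annotation are not given in the sources used here. Groups and replicate numbers follow the sample titles. TPM keeps no depth, so precision was judged from the spread between libraries.

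*Ltf*-KO was compared with WT by limma 3.58.1 (R 4.3.3; lmFit, eBayes with a variance trend, two-sided) on log2(TPM + 1), in the 12956 genes (23.4%) that averaged 1 TPM or more, with Benjamini-Hochberg adjustment over all of them. Fold changes of low genes are understated on this scale. Ratios and correlations over libraries were given exact permutation tests in scipy 1.17.1. The fit was also run on simulated data, with the outcome not given here. Changes were placed only in genes more abundant than *Pax7*, *Pax3* and *Myf6*, so that run did not cover such levels.

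Members and lists were chosen with earlier results of these data known. Beside the members and *Ltf*, the genes named from each list were the 3 with the highest mean and the 3 tested genes with the lowest p, and for each member the 3 genes at 10 TPM or more with the highest r. Some genes that this rule names are not reported here. Members were matched to GENCODE M21 by identifier (6 of 6). RefSeq upstream windows were at hand for 3 members. Alternatives were another pseudocount, no filter, other scalings, no trend, a replicate block and each library left out.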

Additional observations from a re-analysis of the deposited data

How the results depend on the processing

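The count of genes at a limma adjusted p under 0.05 was 0 in every fit on all 6 libraries and 0 to 6 with 1 library left out. At an unadjusted p under 0.05 there were 490 genes, 890 with no filter, where 26553 genes were tested, and 456 to 611 with 1 library left out. Of these 46.9% were lower in *Ltf*-KO SCs, but quantile normalization gave 60% and median-of-ratios scaling 57.6%, and the cause was not tested. Over all alternatives the lowest unadjusted limma p of any factor was 0.1045 (*Pax7*) and the lowest adjusted p was 0.948.

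With 1 library left out, log2 fold changes ranged from -0.11 to 0.0038 for *Pax7*, -0.16 to 0.067 for *Pax3*, -0.069 to 0.069 for *Myf5*, -0.026 to 0.038 for *Myod1*, -0.12 to 0.34 for *Myog* and -0.030 to 0.19 for *Myf6*. *Myod1* was at -0.0029 with quantile normalization and -0.0085 with median-of-ratios scaling. The log2 ratio differences ranged from -0.17 to 0.11 for *Pax3* to *Pax7*, -0.028 to 0.095 for *Myf5* to *Pax7*, -0.15 to 0.37 for *Myog* to *Myod1* and -0.20 to 0.089 for *Myf6* to *Myog*, while that of *Pax7* to *Myod1* stayed negative. Without the 2 libraries farthest from the median, r was 0.26 for *Pax7* with *Myog* and -0.83 for *Pax7* with *Myf5*, whose r ranged from -0.65 to 0.73 with 1 library left out, an alternative chosen after seeing the data. The r of *Myog* with the mean of the targets ranged from 0.952 to 0.996 in these.

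The labels number the replicates 1 to 3 in both genotypes but do not say whether libraries of the same number were prepared together. Such libraries deviated from their genotype means with correlations of -0.041, -0.058 and -0.088 across genes. No shared deviation was thus seen, though these values cannot exclude a pairing. With the replicate block, 380 genes had an unadjusted p under 0.05 and 0 a limma adjusted p under 0.05, and it changed no other call. TPM leaves the counting error of *Pax3* and *Myf6* unknown.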

Other observations

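The genes whose pattern over the 6 libraries was most like that of each factor were taken from 8068 genes at a mean of 10 TPM or more. With so many genes and 6 libraries, high coefficients arise for any gene, and they are given as a description. For *Myog* they were *Zfp568* (r = 0.995), *Dclk1* (0.994) and *Akt2* (0.992), and 2.23% of the genes reached an r of 0.9. *Dclk1*, a microtubule-associated kinase, was at 14.7, 19.7 and 14.1 TPM in WT and at 16.9, 12.35 and 22.7 TPM in *Ltf*-KO SCs. For *Pax3* they were *Slc7a1* (r = 0.993), *Rgs16* (0.988) and *Tpp1* (0.988), and 2.21% reached 0.9. *Rgs16*, a regulator of G protein signaling, was at 152, 157 and 194 TPM in WT and at 155, 199 and 121 TPM in *Ltf*-KO SCs, with its lowest level in *Ltf*-KO replicate 3 as for *Pax3*.

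For *Pax7* the closest were *Dalrd3* (r = 0.987), *Yap1* (0.986) and *Fam193b* (0.976), with 0.62% of the genes at 0.9 or more. *Yap1*, a cofactor of the Hippo pathway, was at 44.5, 43.9 and 42.0 TPM in WT and at 42.0, 44.3 and 40.2 TPM in *Ltf*-KO SCs. For *Myf5* they were *Nck2* (0.989), *Wdr47* (0.988) and *Ccdc6* (0.987). For *Myod1* they were *Macroh2a1* (0.987), *Erf* (0.986) and *Txndc5* (0.985), and for *Myf6* they were *Col8a1* (0.991), *Tns1* (0.99) and *Mmut* (0.982).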
